A study of Mus musculus with 2 samples.

Results

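Dividing hair follicle keratinocytes were studied as a set of cells selected on their own UMI counts, within single-cell RNA sequencing of newborn Chrm3 KO epidermis. A cell belonged to the set if it had at least 2 UMIs (unique molecular identifiers, 1 per captured transcript) of Lhx2, at most 1 of Shh, at most 5 of the melanocyte genes Dct, Pmel and Mlana together, under 1.5% of its UMIs from Krt14 and Krt5, and at least 6 UMIs of Cenpf, Ccnb1 and Ube2c together. Barcodes were considered if they had 900 to 7700 detected genes and less than 10% of their UMIs from mitochondrial genes. The set held 1548 of 19488 cells, which were 638 of 7607 (8.39%) in KO mouse 1 and 910 of 11881 (7.66%) in KO mouse 2. Clopper-Pearson 95% limits on these shares, which cover counting error only, ran from 7.77 to 9.03% and from 7.19 to 8.15%.

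The samples were the epidermis of 2 male C57BL/6J mice at postnatal day 0, both with the Chrm3 KO genotype, 1 library per mouse. Chrm3 encodes the M3 muscarinic acetylcholine receptor, and the KO is present in every cell compared here. The wild-type libraries were not analysed here, so no value below is an effect of genotype. Before the filter, KO mouse 1 had 10816 barcodes with 109756784 UMIs and KO mouse 2 had 15867 with 166441732. Skin epithelium was separated from dermis after an overnight incubation, dead cells were depleted, and a 3′ library was made from each suspension, so a level is a count of transcript ends and does not scale with gene length.

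At birth, hair follicles grow down into the dermis from epithelial placodes and buds, and dividing keratinocytes supply the growing peg. Lhx2 is a LIM homeobox transcription factor of the follicle epithelium. Cenpf, a centromere protein, Ccnb1, the cyclin that activates Cdk1 at mitotic entry, and Ube2c, the ubiquitin-conjugating enzyme of the anaphase-promoting complex (APC/C), accumulate in G2 and mitosis and mark cells about to divide.

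For comparison, 3 other groups of cells were gated in each mouse. Non-dividing follicle cells met the same limits on lineage but had at most 1 UMI of Cenpf, Ccnb1 and Ube2c (1479 and 2216 cells in mice 1 and 2). Basal interfollicular cells had no Lhx2 UMI, at least 1.5% of UMIs from Krt14 and Krt5 and under 0.5% from the suprabasal keratins Krt1 and Krt10. They were split in the same way into dividing (117 and 210) and non-dividing cells (1299 and 2302). UMIs were summed per mouse and group, giving 8 sums of 2002375 to 26547079 UMIs, and levels are given as CPM, the UMIs of a gene scaled to a fixed total of each sum.

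The label was checked against its markers. Lhx2 stood at 549 CPM in mouse 1 and 477 CPM in mouse 2 in the dividing follicle cells, Cenpf at 621 and 612 CPM, and Ube2c at 422 and 420 CPM, all of which the selection set. Follicle genes that the selection did not use were also present. Sox9, a transcription factor of follicle progenitors, was at 146 and 108 CPM against 30.5 and 24.1 CPM in dividing basal cells. Tbx1, a T-box factor, was at 66.4 and 58.2 CPM against 0.499 and 0.574 CPM. Krt17, a keratin of the follicle sheath, was at 2002 and 1728 CPM against 1436 and 1119 CPM. Lef1, the nuclear partner of beta-catenin in Wnt signalling, went the other way, at 47.1 and 67.0 CPM against 120 and 129 CPM.

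Markers of other cell types were summed in the dividing follicle cells. The 7 melanocyte genes, 3 of which the selection limited, summed to 14.0 and 16.0 CPM. The 7 markers of Langerhans cells and macrophages summed to 32.8 and 9.64 CPM, with Tyrobp the most abundant (10.7 and 3.27 CPM) and Cd207 at 0 UMIs in both mice. The 5 T cell markers found in the files summed to 19.6 CPM in mouse 1 and 0.443 CPM in mouse 2, where Cd3e was at 0. In mouse 1, 2 cells had 10 or more UMIs of the T cell markers, up to 173 in a single cell. The 7 mesenchymal markers summed to 332 and 485 CPM, of which Dcn, decorin, made 314 and 469 CPM, while Twist2 was at 0 in both mice and Col3a1 and Pdgfra were at 0 in mouse 1. Dcn was also at 487 and 651 CPM in dividing and 288 and 485 CPM in non-dividing basal cells. The paper reports higher Dcn in a cluster of basal keratinocytes. Endothelial and erythroid markers each summed to 0.443 CPM or less. The part that cells of other types had in the results below was not tested.

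Cell depth and doublet scores differed between the groups. The dividing follicle cells had a median of 17034 and 17872 UMIs, against 10141 and 10425 in non-dividing follicle cells and 17124 and 16468 in dividing basal cells. Scrublet marked only 1 cell of 7607 as a doublet in mouse 1 (0.0131%), so its limit did not work there, and 417 of 11881 in mouse 2 (3.51%), of which 72 were dividing follicle cells. In mouse 2 the marked share was 7.91% of dividing and 2.75% of non-dividing follicle cells, 2.86% of dividing and 0.434% of non-dividing basal cells. Of the cells with the top 5% of doublet scores in each mouse, 72 and 114 were dividing follicle cells (11.3% and 12.5% of them). The share was 3.79% and 4.38% in non-dividing follicle cells, 5.13% and 4.76% in dividing basal cells and 0.462% and 0.652% in non-dividing basal cells. The libraries shared 127 barcode sequences, carried by 2 dividing follicle cells in each mouse.

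The limits fell within a continuum. With 6 to 7 UMIs of the 3 mitotic genes, just inside, 113 and 140 cells had Top2a levels of 466 and 497 CPM. With 4 to 5 UMIs, just outside, 141 and 234 cells had 494 and 386 CPM. At exactly 2 Lhx2 UMIs, 57 and 81 cells had Tbx1 levels of 48.5 and 36.6 CPM, and at exactly 1 UMI, 86 and 98 cells had 18.6 and 14.9 CPM. Between 1% and 1.5% of UMIs from Krt14 and Krt5, 9 and 40 cells had H19 levels of 210 and 310 CPM. Between 1.5% and 2% there were 1 and 16 cells, with H19 at 322 and 844 CPM.

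Genes of G2 and mitosis are known to share promoter elements, the cell cycle genes homology region and CCAAT boxes, through which the DREAM complex and NF-Y act. The promoters below are shown because their genes selected the cells (Ube2c, Cenpf, Ccnb1) or are mitotic regulators described further on (Ccnb2, Plk1). They are RefSeq promoters on GRCm38.p6, from 100 bases before to 50 bases after the annotated start, on the strand of the gene. Capitals mark TTTGAA, the core of the homology region, and CCAAT, each on either strand (TTCAAA and ATTGG on the other).
Ube2c, chr2:164769829-164769978, plus strand: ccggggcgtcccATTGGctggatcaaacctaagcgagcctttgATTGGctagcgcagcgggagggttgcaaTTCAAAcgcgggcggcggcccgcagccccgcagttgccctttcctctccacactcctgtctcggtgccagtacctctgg
Cenpf, chr1:189688037-189688186, minus strand: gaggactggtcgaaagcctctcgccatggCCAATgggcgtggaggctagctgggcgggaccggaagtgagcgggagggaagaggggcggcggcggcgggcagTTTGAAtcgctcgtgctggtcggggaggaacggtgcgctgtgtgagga
Ccnb1, chr13:100786437-100786586, minus strand: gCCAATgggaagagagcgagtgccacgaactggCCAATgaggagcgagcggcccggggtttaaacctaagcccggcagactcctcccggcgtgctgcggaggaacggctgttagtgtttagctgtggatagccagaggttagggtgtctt
Ccnb2, chr9:70421505-70421654, minus strand: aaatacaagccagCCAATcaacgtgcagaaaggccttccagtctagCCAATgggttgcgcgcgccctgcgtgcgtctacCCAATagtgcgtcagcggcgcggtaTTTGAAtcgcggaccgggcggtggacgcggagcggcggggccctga
Plk1, chr7:122159335-122159484, plus strand: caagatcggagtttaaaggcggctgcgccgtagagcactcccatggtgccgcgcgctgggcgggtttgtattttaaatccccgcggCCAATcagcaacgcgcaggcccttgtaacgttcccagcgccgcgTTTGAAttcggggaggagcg

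Ccnb1 holds CCAAT but no TTTGAA, and the other 4 hold both. Within 250 bases before to 50 after the start, TTTGAA on either strand was found in 31 of the 47 mitotic genes whose promoter was listed (66.0%, of 54 genes), against 4893 of 27025 promoters in all (18.1%). CCAAT on either strand was found in 76.6% of the mitotic promoters and 37.9% of all. Both were found in 59.6% and 7.12%. Among 27 listed S phase promoters, TTTGAA was found in 14.8% and CCAAT in 63.0%, and among 17 promoters of follicle transcription factors they were found in 11.8% and 29.4%. A match describes the letters in the window and is not a binding site.

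A larger share of follicle cells than of basal cells met the limit for dividing cells. In the follicle lineage it was 25.2% of 2529 cells in mouse 1 and 23.8% of 3831 in mouse 2, and in the basal lineage 7.85% of 1490 and 7.98% of 2632. The ratio of the shares was 3.09 ± 0.163 (SD, n = 2). The groups of 2 do not overlap, and no test was made because the limit is part of the selection. Each cell was also thinned to 5000 UMIs, shallower cells were left out, and all limits were applied again to the thinned counts. The shares were then 11.6% of 1922 and 10.7% of 2709 follicle cells, against 4.10% of 1538 and 4.46% of 2736 basal cells. The lineages after thinning are thus not the same cells as before. The share in basal cells depended on the mitochondrial limit. With under 5% mitochondrial UMIs, it was 20.7% (29 of 140 cells) and 17.8% (111 of 623), while the follicle share was 24.2% and 24.6%, and the ratio was 1.27. Median mitochondrial shares were 6.21% and 5.61% in non-dividing basal cells and 5.10% and 4.68% in non-dividing follicle cells.

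**Figure D1:**
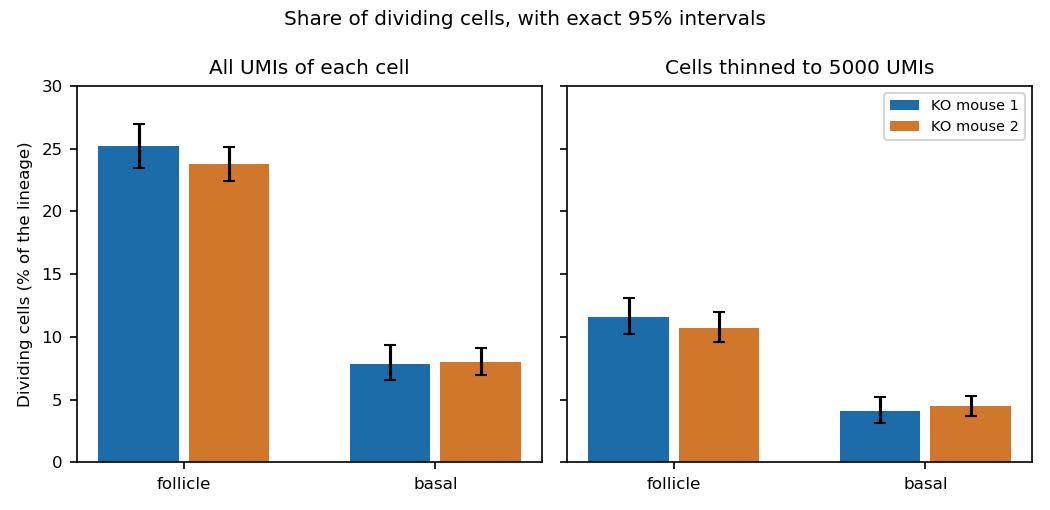
The share of dividing cells (%) within follicle and basal lineages of each KO mouse is shown with exact 95% binomial intervals as bars, on all UMIs (left) and after thinning each cell to 5000 UMIs (right). Both follicle bars stand above both basal bars in each panel, at 25.2% and 23.8% against 7.85% and 7.98% on all UMIs.

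Genes of the mitotic machinery had higher levels in dividing than in non-dividing follicle cells. Against non-dividing follicle cells, which the selection separates by 3 mitotic genes, 50 of the 51 tested genes of 6 mitotic lists were higher and none lower, while 6.97% of all 12861 tested genes were higher and 8.25% lower (edgeR quasi-likelihood test, adjusted p under 0.05). Their median log2 difference was 2.93, and that of all tested genes was -0.05. Since these genes are expressed together with the 3 used to select the cells, the counts are a description. The 12 genes named in the limits of the 4 groups are left out of all counts here and below.

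Among the mitotic regulators, Cdk1, the kinase that drives mitotic entry, was at 291 and 269 CPM in dividing and 46.5 and 45.5 CPM in non-dividing follicle cells. Plk1, a polo-like kinase, was at 92.2 and 94.6 CPM against 4.54 and 4.18 CPM. Cdc20, an activator of the APC/C, was at 309 and 269 CPM against 24.4 and 20.6 CPM. The dividing and non-dividing values did not overlap in these genes. Of the spindle and chromosome genes, Hmmr, a spindle assembly factor, was at 146 and 129 CPM against 6.32 and 5.73 CPM. Nusap1, a microtubule-binding protein, was at 244 and 241 CPM against 11.7 and 9.72 CPM. Both had a log2 difference of 4.52. Top2a, the topoisomerase that untangles sister chromatids, was at 665 and 676 CPM against 85.7 and 90.1 CPM. Pttg1, securin, was the mitotic gene without a call, at 15.7 and 20.6 CPM against 17.6 and 18.2 CPM, and immune cells held 24.6 and 31.6 CPM of it.

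In dividing basal cells, part of these genes had higher levels than in dividing follicle cells. Top2a, which was not called, stood at 688 and 679 CPM in dividing basal cells and Mki67, the antigen Ki-67 of cycling cells, at 608 and 522 CPM against 618 and 607 CPM in the follicle. Of the 51 mitotic genes, 23 were lower and 0 higher in dividing follicle cells than in dividing basal cells, and their median log2 difference was -0.30. Over all tested genes 13.8% were higher, 13.4% were lower and the median was 0.03. The spindle and cytokinesis list held 9 of the 23, for example Arl6ip1 at 587 and 591 CPM against 948 and 950 CPM, and Anln, the contractile ring protein anillin, at 66.0 and 64.8 CPM against 137 and 102 CPM. With the mouse as a block, 34 of the 51 were lower and 0 higher (all genes 17.2% and 18.9%).

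**Figure D2:**
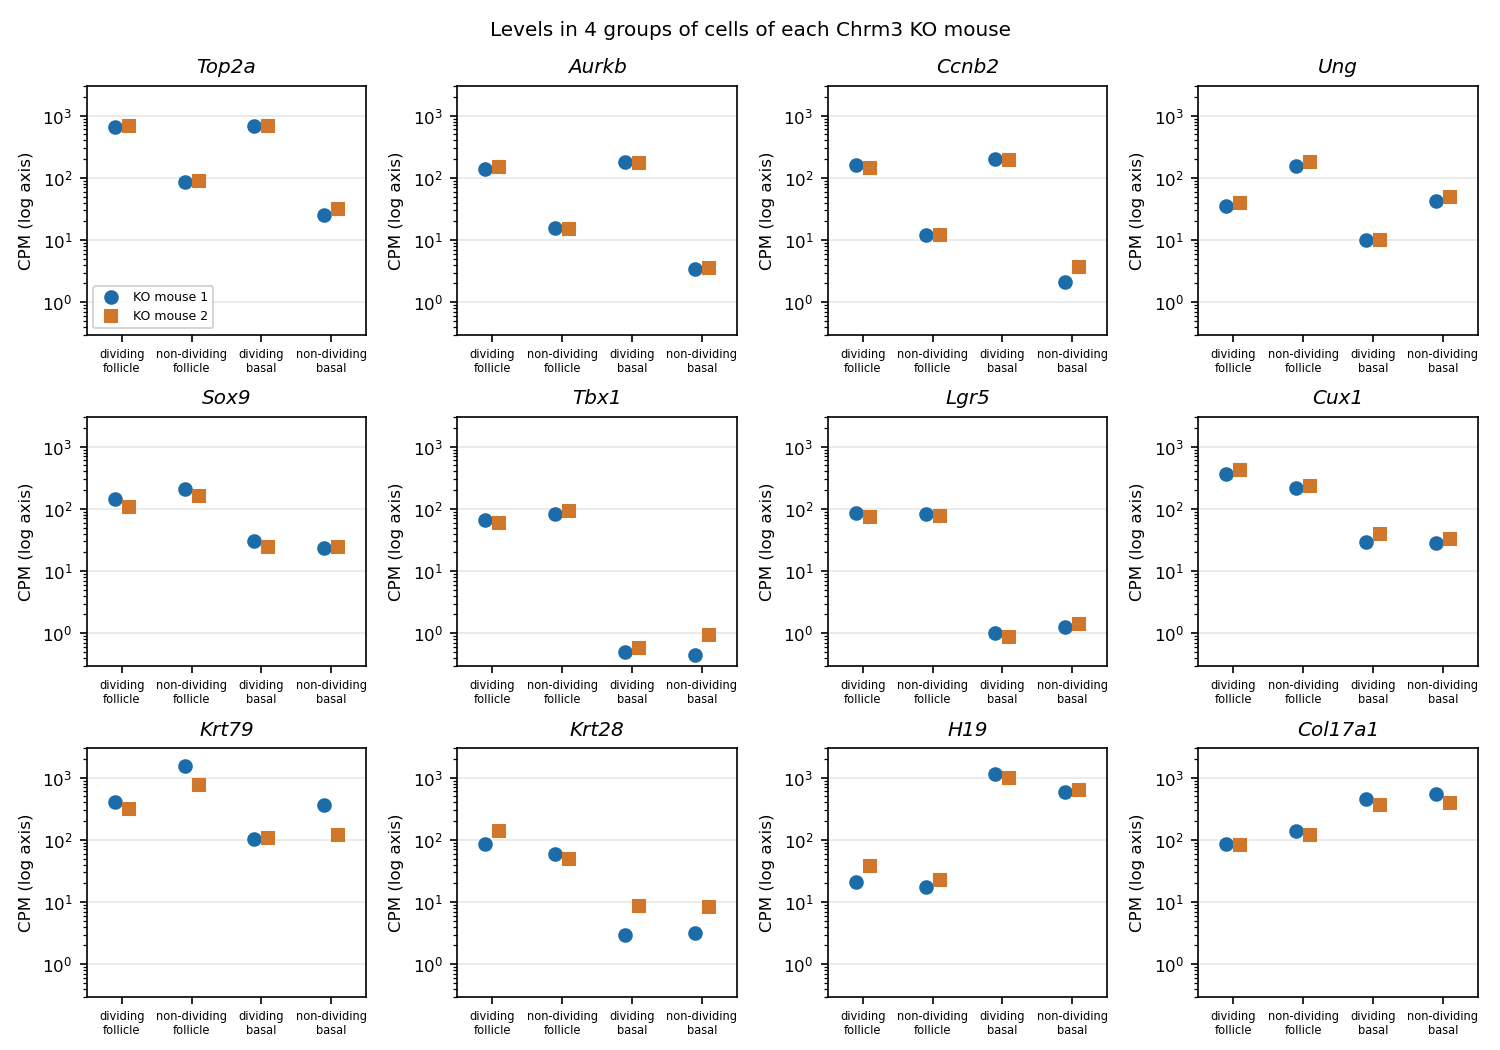
Levels of 12 genes (CPM, logarithmic axis) are plotted in the 4 groups of cells, with 1 point per KO mouse. Top2a, Aurkb and Ccnb2 are near each other in both dividing groups and higher in non-dividing follicle than in non-dividing basal cells, Tbx1, Lgr5 and Cux1 are high in both follicle groups, and H19 and Col17a1 are high in both basal groups.

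The next comparison asked whether the difference between dividing and non-dividing cells was the same in the follicle as in the basal layer. It was tested as an interaction in edgeR, with the same limits on the mitotic genes in both lineages. The log2 interaction, the difference in the follicle minus that in basal cells with their signs kept, was called positive for 6 of 12861 genes (0.0467%) and negative for 165 (1.28%), with 1580 genes at an unadjusted p under 0.05. The mouse number pairs the sums, and with the mouse as a block the counts were 274 (2.13%) and 497 (3.86%), including all 171 genes. DESeq2 gave 17 and 223. The 8 sums came from 2 animals, so p-values measure the spread between these sums.

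The 51 genes of the mitotic lists had fitted differences above 0 in both lineages. Of these, 42 were called negative in the interaction and 0 positive, where 1.28% and 0.0467% of all genes were. Their median log2 interaction was -1.31 against -0.02 for all tested genes. By list, negative calls were 5 of 7 cyclins and Cdk1 partners, 7 of 9 kinases and checkpoint genes and 3 of 5 APC/C genes. They were also 7 of 9 kinetochore genes, 11 of 12 spindle genes and 9 of 9 mitotic chromosome genes. With the mouse as a block, Cdc25b, Aurka, Bub3, Fzr1, Cenpw and Ndc80 were called negative as well, where 3.86% of all genes were. Cks2, Pttg1 and Anln were called in neither fit. Aurkb, the kinase of the chromosomal passenger complex, was at 137 and 147 CPM in dividing follicle cells and 15.5 and 15.1 CPM in non-dividing ones, against 178 and 173 CPM and then 3.42 and 3.51 CPM in basal cells. The log2 interaction was -2.37 ± 0.134 (SE, edgeR adjusted p = 2.94e-04), with the same direction in both mice. Ccnb2, cyclin B2, was at 158 and 143 CPM against 11.9 and 12.2 CPM in the follicle, and 198 and 194 CPM against 2.08 and 3.68 CPM in basal cells (log2 interaction -2.29 ± 0.224, edgeR adjusted p = 0.00145).

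Non-dividing follicle cells held more mitotic transcript than non-dividing basal cells, with Top2a at 85.7 and 90.1 CPM against 25.6 and 31.9 CPM and Mki67 at 96.7 and 83.2 CPM against 19.7 and 22.2 CPM. The 30 S phase genes summed to 2360 and 2608 CPM in the former and 1041 and 1213 CPM in the latter. When non-dividing cells with any UMI of Top2a or Mki67 were left out, 18 genes (0.147%) were called positive and 57 (0.465%) negative, and 5 of the 51 mitotic genes were called negative (median log2 interaction -0.53, all genes 0.06). That limit removed every Top2a and Mki67 UMI from both non-dividing groups. Both genes stayed in these counts, so their own values in this setting are set by the limit. With under 5% mitochondrial UMIs, where dividing basal cells numbered 29 and 111, no gene was called and 892 had an unadjusted p under 0.05. Which of these differences between the groups set the calls was not tested.

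Of the other named genes called negative, Nek2, a centrosome kinase, had a log2 interaction of -2.34, Ska1, of the outer kinetochore, -2.22, and the kinesins Kif15 and Kif20a -2.22 and -2.16. The condensin subunit Ncapg had -2.08 and the phosphatase Cdkn3 -2.08. The replication-linked histones Hist1h3c and Hist1h1a had -2.16 and -2.07. Hist1h3c was at 80.0 and 88.5 CPM in dividing follicle cells and 74.9 and 72.5 CPM in dividing basal cells, but at 14.8 and 14.1 CPM against 2.16 and 3.00 CPM in the non-dividing groups. Crip1, a LIM-domain protein, differed from these in form. It was at 67.5 and 79.1 CPM in dividing and 76.1 and 97.7 CPM in non-dividing follicle cells, against 143 and 179 CPM and then 33.4 and 48.8 CPM in basal cells (log2 interaction -2.14 ± 0.291, edgeR adjusted p = 0.00728).

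The interaction was called positive for Bach2, Col27a1, Neat1, Eif4ebp1, Ankrd10 and Dhps, the last of which lay under the level limit for named genes. Bach2, a transcriptional repressor, was at 117 and 135 CPM in dividing and 74.3 and 75.1 CPM in non-dividing follicle cells, against 8.49 and 14.6 CPM and then 16.9 and 17.0 CPM in basal cells. Its log2 interaction was 1.29 ± 0.238 (SE, edgeR adjusted p = 0.0339). Neat1, the long non-coding RNA of paraspeckles, was at 335 and 315 CPM against 361 and 318 CPM in the follicle, and 682 and 618 CPM against 1230 and 1091 CPM in basal cells, with an interaction of 0.84 ± 0.116 (edgeR adjusted p = 0.00792). The Neat1 values of the follicle groups overlapped, and those of the basal groups did not. Col27a1, a fibrillar collagen, was at 133 and 136 CPM against 104 and 115 CPM in the follicle, with an interaction of 0.89 ± 0.161 (edgeR adjusted p = 0.0300). Eif4ebp1, a repressor of translation initiation, had an interaction of 0.75, with a log2 difference of 0.09 in the follicle and -0.66 in basal cells. Ankrd10 had an interaction of 0.67, with differences of 0.03 and -0.64. Of the 5 named genes Bach2 alone had a larger difference in the follicle than in basal cells without regard to sign, at 0.76 and -0.53.

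**Figure D3:**
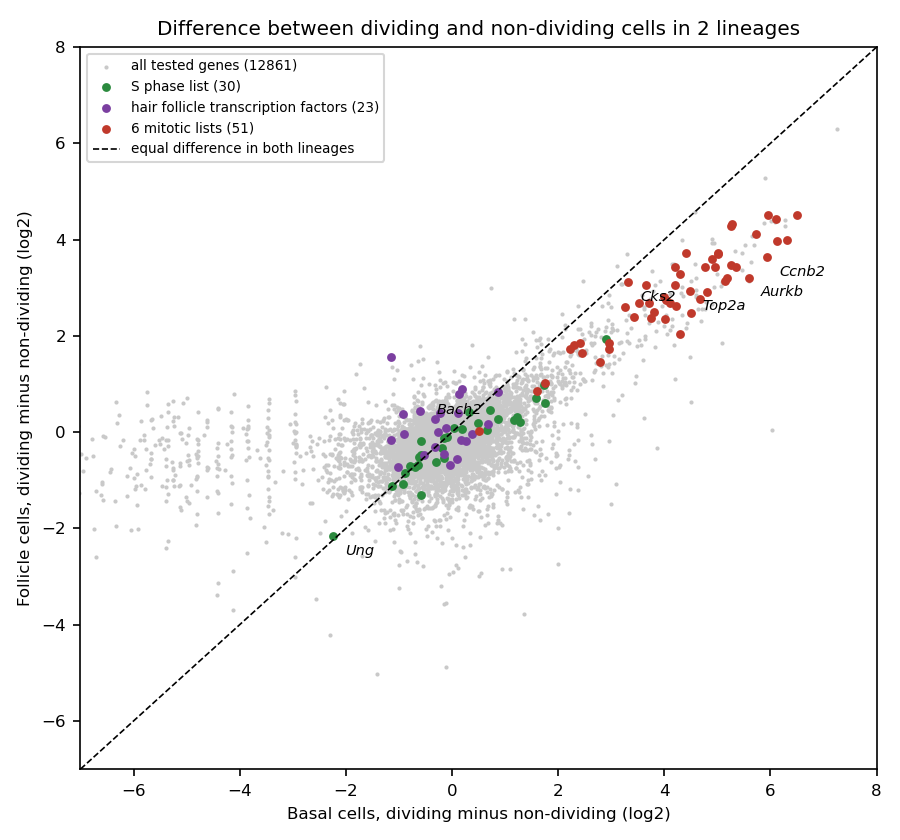
Each point is 1 tested gene, placed by its log2 difference between dividing and non-dividing cells in the basal lineage (horizontal) and in the follicle lineage (vertical). The 51 genes of the mitotic lists lie below the dashed line of equal difference, the S phase and follicle transcription factor lists lie on both sides of it, and 15 of 12861 genes fall outside the axes.

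Replication genes moved in both directions. The limit on non-dividing cells used only Cenpf, Ccnb1 and Ube2c, so it did not exclude cells in S phase. The 30 S phase genes summed to 2341 and 2333 CPM in dividing and 2360 and 2608 CPM in non-dividing follicle cells. Of 30 S phase genes, 5 were higher and 11 lower in dividing than in non-dividing follicle cells (6.97% and 8.25% of all genes), with a median log2 difference of -0.11 against -0.05 for all genes. The block gave 8 higher and 13 lower (all genes 14.0% and 17.9%). Ung, the uracil-DNA glycosylase, was at 35.9 and 38.7 CPM in dividing and 153 and 181 CPM in non-dividing follicle cells. Gins2, a subunit of the replicative helicase, was at 29.4 and 28.7 CPM against 70.2 and 73.3 CPM. Mcm6, of the same helicase, was at 138 and 132 CPM against 187 and 201 CPM, whereas Tyms, thymidylate synthase, was at 110 and 120 CPM against 65.5 and 76.7 CPM.

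Against dividing basal cells, 20 of the 30 S phase genes were higher in dividing follicle cells and none lower (13.8% and 13.4% of all genes), with a median log2 difference of 0.71 against 0.03 for all genes. Ung was at 9.99 and 10.0 CPM in dividing basal cells and Mcm6 at 87.4 and 62.5 CPM. Dut, the dUTPase, was at 341 and 338 CPM in dividing follicle cells and 175 and 191 CPM in dividing basal cells. In the interaction, 4 of the 30 were called negative (Rrm1, Gins2, Rpa2 and Clspn) and none positive, where 1.28% and 0.0467% of all genes were. Their log2 interactions were -0.75, -0.71, -0.61 and -1.15. With the mouse as a block, 9 of the 30 were called negative (3.86% of all genes), among them Tyms (-0.88, edgeR adjusted p = 5.61e-04), and none positive.

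Among the D cyclins and CDK inhibitors, Ccnd1, the G1 cyclin D1, was at 317 and 370 CPM in dividing follicle cells and 88.4 and 95.8 CPM in dividing basal cells. It was at 321 and 367 CPM in non-dividing follicle cells, within the range of the dividing ones. Cdkn1b, the inhibitor p27, was at 152 and 111 CPM in dividing and 91.2 and 67.9 CPM in non-dividing follicle cells. Cdkn1c, the inhibitor p57, was at 12.4 and 13.2 CPM against 35.0 and 39.0 CPM in dividing basal cells. Cdkn2c, the inhibitor p18, was the one gene of the 9 tested in this list that the main test called in the interaction. It was at 44.6 and 38.2 CPM against 12.5 and 9.72 CPM in the follicle, and 68.9 and 64.2 CPM against 5.94 and 5.12 CPM in basal cells (log2 interaction -1.62 ± 0.200, edgeR adjusted p = 0.00497). With the mouse as a block, Ccnd2, cyclin D2, was also called positive (log2 interaction 0.84, edgeR adjusted p = 0.0255). Cdkn1b was called negative (-0.33, edgeR adjusted p = 0.0234). Of all genes, 1.28% were called negative in the main test. With the block 2.13% were called positive and 3.86% negative.

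Most follicle transcription factors were higher than in dividing basal cells. Of 23 tested follicle transcription factors, 19 were higher and 2 lower in dividing follicle than in dividing basal cells, where 13.8% and 13.4% of all genes were, with a median log2 difference of 2.87. As Lhx2 and the basal keratins selected these groups, this is a description. Without scaling factors beyond the total UMIs, the calls over all genes were 2291 higher and 1422 lower in place of 1781 and 1724. Against non-dividing follicle cells, 5 of the 23 were higher and 5 lower (6.97% and 8.25% of all genes). In the interaction edgeR called none of the 23. With the mouse as a block Cux1 was called positive (log2 interaction 0.65, edgeR adjusted p = 0.00311). Barx2 was called negative (-0.69, edgeR adjusted p = 0.0151). In that fit 2.13% of all genes were called positive and 3.86% negative.

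Cux1, a homeobox factor, was at 358 and 414 CPM in dividing follicle cells, 215 and 234 CPM in non-dividing follicle cells and 29.5 and 40.1 CPM in dividing basal cells. Hoxc13, a homeobox factor of the hair matrix and shaft, was at 67.1 CPM in both mice against 50.8 and 52.3 CPM in non-dividing follicle cells, and at 0 and 1.72 CPM in dividing basal cells. Msx1 was at 8.14 and 13.5 CPM against 4.19 and 3.35 CPM in non-dividing follicle cells. All 3 had higher values in dividing than in non-dividing follicle cells in both mice, and Cux1 and Msx1, but not Hoxc13, were called. Sox9, at 211 and 159 CPM in non-dividing follicle cells, and Barx2, at 411 and 324 CPM there against 255 and 203 CPM in dividing ones, were lower in the dividing cells. Mycn, a proto-oncogene of the Myc family, had a log2 difference of 3.85 from dividing basal cells and was at 45.7 and 49.2 CPM in non-dividing follicle cells.

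Of 14 tested genes of the basal interfollicular epidermis, 11 were lower and 1 higher than in dividing basal cells, with a median log2 difference of -1.75 (13.8% of all genes were higher and 13.4% lower). Of the outer root sheath genes 6 were higher and 5 lower, and of the inner root sheath and shaft genes 4 were higher and 2 lower. In the interaction edgeR called none of the basal, suprabasal and inner root sheath genes. With the mouse as a block it called 1 basal gene positive (Wnt4) and 4 genes of these lists negative (Sostdc1, Sbsn, Dmkn and Krt32). In that fit 2.13% of all genes were called positive and 3.86% negative.

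Other genes with the largest differences from dividing basal cells fell into several groups. Lgr5, a receptor for R-spondin and a mark of follicle stem cells, was at 84.5 and 74.1 CPM against 0.999 and 0.860 CPM. Col14a1, a fibril-associated collagen, was at 177 and 164 CPM, with log2 differences of 6.64 in mouse 1 and 5.86 in mouse 2. Nrp2, a neuropilin, was at 142 and 144 CPM, with 6.33 and 4.36. In dividing basal cells of mouse 1, Col14a1 and Nrp2 were both at 1.5 CPM, so their mouse 1 differences rest on few UMIs. Slc7a2, a cationic amino acid transporter, was at 62.6 and 66.1 CPM against 0.999 and 0.860 CPM. Also among the 12 highest were Prss35, with log2 differences of 7.07 and 5.06 in the mice, the metalloprotease Adamts17, at 64.8 and 51.4 CPM, and the secreted protein Igfbp7, with 4.64 and 3.63. Prss35 and Adamts17 were both at 0.499 CPM in dividing basal cells of mouse 1, and at 2.01 and 3.73 CPM in those of mouse 2, so the size of their differences rests on few UMIs. In the other direction, H19, an imprinted long non-coding RNA, was at 21.0 and 37.9 CPM against 1152 and 984 CPM. Igf2, its imprinted neighbour and a growth factor, was at 3.61 and 6.21 CPM against 214 and 151 CPM. Igfbp2, an IGF-binding protein, was at 5.71 and 11.9 CPM against 225 and 159 CPM. Sparc, a matricellular protein, was at 54.3 and 70.4 CPM against 484 and 524 CPM. The water and glycerol channel Aqp3, the chemokine scavenger Ackr4, Myof, Ifngr1, Ahnak2, Tgfbi and Stfa1 were likewise lower, with log2 differences from -3.48 (Myof) to -2.90 (Stfa1). H19 and Igf2 were as low in non-dividing follicle cells, at 17.7 and 23.0 CPM and 3.96 and 4.52 CPM.

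Of the 20 tested Wnt and placode genes, 9 were higher and 9 lower in dividing follicle than in dividing basal cells, where 13.8% of all tested genes were higher and 13.4% lower. All 6 ligands of the list (Wnt3, Wnt4, Wnt6, Wnt7b, Wnt10a and Wnt10b) were among the lower genes. Outside the list, Wnt16 was at 14.4 and 16.1 CPM against 210 and 140 CPM. Of the list, Wnt3 was at 10.3 and 12.5 CPM against 81.9 and 71.1 CPM, and Wnt7b at 23.0 and 26.6 CPM against 128 and 130 CPM. The secreted inhibitors Sfrp1 and Wif1 were higher, at 27.6 and 19.2 CPM against 5.49 and 3.44 CPM, and 4.78 and 4.38 CPM against 0 UMIs in both mice. Of the receptors, effectors and targets, some were higher and some lower. The receptors Lgr4 and Fzd10 had log2 differences of 1.54 and -1.12, the effectors Tcf7 and Lef1 1.69 and -1.20, and the target Axin2 -0.51. Nkd1, another target, was at 7.05 and 7.59 CPM against 0.999 CPM in mouse 1 and 0 UMIs in mouse 2. Also higher was the receptor Edar of the placode, at 12.6 and 14.4 CPM against 3.00 and 2.58 CPM. In the interaction edgeR called none of the 20, and 13 values were above 0 and 7 below. Under the block, Wnt4 was called positive (log2 interaction 0.61, edgeR adjusted p = 0.0112) and Wnt7b negative (-0.57, edgeR adjusted p = 0.00578). In that fit 2.13% of all genes were called positive and 3.86% negative.

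Of 9 tested hedgehog pathway genes, 6 were higher and 0 lower than in dividing basal cells, against the same 13.8% and 13.4% of all genes. Shh itself was limited by the selection. The receptor and target Ptch1 was at 311 and 280 CPM against 190 and 162 CPM, and the target Gli1 was at 44.1 and 42.6 CPM against 22.5 and 25.2 CPM. Against non-dividing follicle cells Gli1 was the only one called, at 34.1 CPM there in both mice. Of all genes, 6.97% were higher and 8.25% lower in that contrast. With the mouse as a block 2 of the hedgehog genes were higher and 1 lower (14.0% and 17.9% of all genes). Of 14 Bmp and Tgf-beta genes, 9 were higher and 2 lower than in dividing basal cells. Bmp4, a ligand, was at 17.2 and 20.2 CPM against 0.499 and 0.574 CPM, and 13.3 and 12.2 CPM in non-dividing follicle cells. Id3, a target of Bmp signalling, was at 127 and 117 CPM against 37.5 and 28.1 CPM. Tgfb2, a Tgf-beta ligand, was at 67.2 and 58.7 CPM against 3.5 and 1.15 CPM, with log2 differences of 4.11 and 5.48 in the mice. The levels of Bmp4 and Tgfb2 in dividing basal cells rest on few UMIs, and so do the sizes of their differences. In the interaction 1 of the 14 was called, Fst, the activin and Bmp antagonist follistatin, which was negative (1.28% of all genes). Fst was at 151 and 143 CPM in dividing and 230 and 221 CPM in non-dividing follicle cells. Its log2 interaction was -0.51 ± 0.0943 (edgeR adjusted p = 0.0334). With the mouse as a block, Id3 was called positive as well (0.64, edgeR adjusted p = 0.00457). Sostdc1, a secreted antagonist of Bmp and Wnt, was called negative (-0.92, edgeR adjusted p = 0.00145). In that fit 2.13% of all genes were called positive and 3.86% negative.

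Of 13 tested adhesion genes, 3 were higher and 7 lower in dividing follicle than in dividing basal cells (13.8% and 13.4% of all genes). Itga6 and Itgb4, the hemidesmosome integrin, were at 96.4 and 84.0 CPM against 246 and 224 CPM, and at 61.1 and 59.6 CPM against 178 and 171 CPM. Col17a1, a hemidesmosome collagen, was at 84.8 and 82.0 CPM against 455 and 360 CPM. Epcam, an epithelial adhesion molecule, was at 482 and 353 CPM against 175 and 162 CPM. These 4 genes separated the lineages without overlap in both mice. Of 9 Notch genes, 3 were higher and 2 lower, the latter near the share of all genes, with Notch1 at 58.1 and 73.2 CPM against 113 and 122 CPM and the ligand Dll1 at 3.36 and 4.10 CPM, with a log2 difference of -2.40. In the interaction edgeR called none of the adhesion and Notch genes. With the mouse as a block it called Tnc, tenascin C, negative (log2 interaction -0.58, edgeR adjusted p = 0.0269). In that fit 3.86% of all genes were called negative.

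Against non-dividing follicle cells, where 6.97% of all tested genes were higher and 8.25% lower, genes of the follicle sheaths, upper follicle and shaft were called lower in part. Of 14 tested genes of the outer root sheath and upper follicle, 8 were lower and 0 higher, and of 9 of the inner root sheath and shaft, 3 were lower and 1 higher, while others such as Krt27 (15.9 and 25.5 CPM against 21.3 and 24.7 CPM) had no call. Krt79, a keratin of the upper follicle and its canal, was at 412 and 310 CPM against 1550 and 758 CPM. Krt75, of the companion layer, was at 5.12 and 6.54 CPM against 59.1 and 24.3 CPM. Krt71, of the inner root sheath, was at 6.21 and 8.59 CPM against 19.1 and 43.4 CPM. Krt28, another inner root sheath keratin, was the one in this group that was higher, at 84.9 and 138 CPM, with a log2 difference of 1.05. Ccer2 had the most negative value among the named genes, with a log2 difference of -5.03 and levels of 82.7 and 27.4 CPM in non-dividing cells. Apoe, the lipid carrier, was at 1047 and 927 CPM against 1542 and 1442 CPM and was called in the interaction, with basal levels of 972 and 941 CPM in dividing and 819 and 696 CPM in non-dividing cells (log2 interaction -0.86 ± 0.115, edgeR adjusted p = 0.00673). In the interaction 2 of the 14 outer root sheath genes were called negative (1.28% of all genes). With the mouse as a block 5 were (3.86% of all genes). Of 11 tested suprabasal genes, 6 were lower and 0 higher in dividing follicle cells. Among the named lower genes were also Ly6g6c, Sytl1, Mgll, Anxa8, the small heat shock protein Hspb1, the desaturase Scd1 and Mgst1. After thinning all cells to 5000 UMIs, Scd1 and Mgst1 had log2 differences of -0.50 and -0.20 in place of -1.58 and -1.15, and Ly6g6c and Mgll -1.05 and -0.67 in place of -1.89 and -1.20. Scd1 and Mgst1 belong to the sebaceous markers, whose sum was 57.5 and 110 CPM in dividing and 200 and 177 CPM in non-dividing follicle cells.

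Some immediate early genes had different levels in the mice, which was not tested. Fos, an immediate early gene, was at 230 CPM in mouse 1 and 104 CPM in mouse 2 in dividing follicle cells, and at 762 and 404 CPM in dividing basal cells. Jun was at 1235 and 702 CPM against 1507 and 1045 CPM. The heat shock genes of the same list were closer between the mice in dividing follicle cells, with Hspa8 at 1441 and 1414 CPM and Dnajb1 at 90.9 and 94.6 CPM, and Hspa1b was higher in mouse 2, at 6.88 and 10.6 CPM. Of 14 immediate early and stress genes, 0 were called in the interaction and 9 were called positive with the mouse as a block (2.13% of all genes), with a median log2 interaction of 0.45 in each fit. Against dividing basal cells 6 were lower and 1 higher (13.4% and 13.8% of all genes), and with the block 12 were lower and 1 higher (17.2% and 18.9%).

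Dividing follicle cells varied among themselves. In cells thinned to 5000 UMIs (634 and 902 cells), the variance over cells divided by the mean had a median of 1.04 over 5505 genes in both mice. Genes were ordered by the lower of their values in the mice, and Krt79 came first, at 24.4 and 34.0. Gm42418, at 26.9 and 22.4, came next, and Flg, filaggrin, reached 36.3 in mouse 2 but 3.65 in mouse 1. Krt79 was detected in 17.5% and 22.5% of the cells, and in 17.4% and 21.2% of immune cells (median 9760 and 10025 UMIs before thinning). Detection alone therefore does not tell the dividing follicle cells from immune cells, and the source of these UMIs was not tested. A few cells held far more, up to 51 and 102 UMIs. Within the dividing follicle cells, Krt79 and Krt17 were correlated with r = 0.526 over 634 cells and 0.385 over 902 cells of equal depth, given as a description. Krt79 and Lgr5 had r = -0.0455 and -0.0664.

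Among the other variable genes, Krt15, a keratin of basal and bulge cells, had a variance over mean of 11.9 and 9.21 and was found in 68.0% and 66.3% of the cells, against 31.1% and 45.2% of immune cells. Ly6d had 14.1 and 13.5, Apoe 16.3 and 11.7, the stefin Stfa3 11.7 and 11.6, decorin (Dcn) 8.76 and 8.06, and Krtdap, of suprabasal cells, 7.70 and 6.59. The linker histone Hist1h1b had 13.3 and 9.59, the cyclin Ccnd2 6.15 and 7.17, and the metallothioneins Mt1 and Mt2 6.23 and 8.69, and 5.91 and 6.80. Krt28 lay outside the first 15 genes, at 3.78 and 4.01, with a UMI in 16.1% and 22.9% of the cells against 2.40% and 3.85% of immune cells. Krt28 and Krt15 had r = -0.135 and -0.175.

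**Figure D4:**
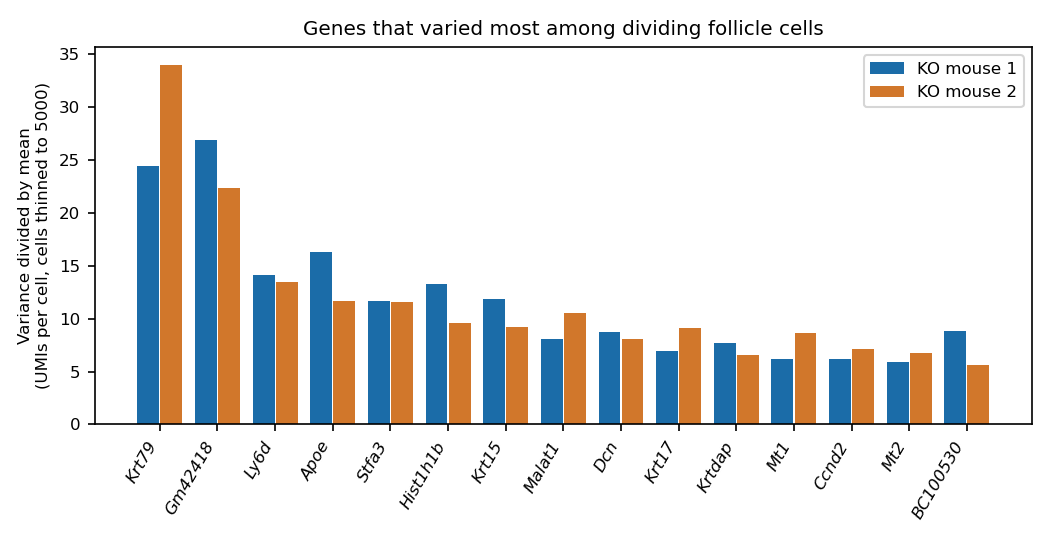
The variance of UMIs per cell divided by their mean is drawn as bars from 0 for the 15 genes that varied most among dividing follicle cells, in cells thinned to 5000 UMIs, for each KO mouse. Krt79 reached 24.4 and 34.0, Gm42418 26.9 and 22.4, and the last gene, BC100530, 8.84 and 5.61.

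Chrm3 itself, the targeted gene, had 2 UMIs in the dividing follicle cells of each mouse, or 0.168 CPM in mouse 1 and 0.111 CPM in mouse 2. Poisson limits at 95% were 0.0203 to 0.606 CPM and 0.0134 to 0.400 CPM. A UMI does not tell which part of the gene was transcribed, so this does not check the deletion. Of the other muscarinic receptors, Chrm1 was at 0.755 and 0.998 CPM and Chrm5 had no UMI in any of the 4 groups. Chrm2 and Chrm4 had at most 1 UMI in the dividing follicle cells of either mouse.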

How the data were processed

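Epidermal cells of 2 Chrm3 KO mice were profiled by 3′ single-cell RNA-seq (the paper names version 3.1 of the chemistry, the labels version 1). Per the submitters' processing notes, the authors used Cell Ranger 3.0.2 and mm10. They deposited UMI counts of 27998 genes per barcode, not normalized. The barcodes had at least 505 and 501 UMIs in mice 1 and 2. Positions come from GENCODE M21 (GRCm38), in which 27645 gene identifiers were found, and promoters from RefSeq.

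Members, gene lists and limits were chosen with earlier results of these data known. Cells were gated as described, and counts were summed per mouse and gate. The 8 sums entered 1 fit of edgeR 4.0.16 in R 4.3.3 (TMM factors, 12873 genes kept by filterByExpr, 4 residual degrees of freedom; p-values from the quasi-likelihood test, adjusted after Benjamini and Hochberg), checked on simulated data. The mouse of a sum pairs the gates, since it is the same animal. Across genes, mouse differences in pairs of gates had r from 0.0322 to 0.266.

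The interaction was the test that was read. The other contrasts are set by the gates, and their counts, calls and log2 differences are given as a description. Named genes were those of 31 lists (302 of 304 genes in the files), plus up to 12 genes per direction and contrast with the largest log2 difference among those called, of 1 direction in both mice and at 50 CPM or more in 1 gate. The variation list took the 15 genes with the largest variance over mean, by the lower of the mice, and a mean of at least 0.1 UMIs. Alternatives were a replicate block for the mouse, DESeq2 1.42.0 or only its size factors, all genes unfiltered, thinning to 5000 UMIs, doublets left out (Scrublet in scanpy 1.11.5) and other gate limits. Python 3.11.15 with matplotlib 3.10.9 drew the figures.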

Additional observations from a re-analysis of the deposited data

Results flagged for a closer look

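The difference between dividing and non-dividing cells differed between the follicle and the basal lineage by the interaction test, called positive for 6 genes and negative for 165. The named genes with a positive log2 interaction (follicle minus basal) were Bach2 (1.29), Col27a1 (0.89), Neat1 (0.84), Eif4ebp1 (0.75) and Ankrd10 (0.67). Those with a negative one were Aurkb (-2.37), Nek2 (-2.34), Ccnb2 (-2.29), Ska1 (-2.22), Kif15 (-2.22), Hist1h3c (-2.16), Kif20a (-2.16), Crip1 (-2.14), Iqgap3 (-2.09), Cdkn3 (-2.08), Ncapg (-2.08) and Hist1h1a (-2.07). The values in non-dividing follicle cells that move with the mitotic genes stand beside the test in the results. With under 5% mitochondrial UMIs no gene was called, and all 17 named genes were weaker. With non-dividing cells free of Top2a and Mki67, 9 of the 17 were weaker.

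Among barcodes that the cell filter removed, 39 in mouse 1 and 42 in mouse 2 met every other limit of dividing follicle cells. Of these, 28 and 26 had 10% or more mitochondrial UMIs and 11 and 16 had more than 7700 genes. They entered no comparison.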

How the results depend on the processing

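For the interaction, main count 171, the count was 560 with no filter, 771 with the mouse as a replicate block, 106 after thinning to 5000 UMIs, 83 with the keratin limit at 3%, 0 with under 5% mitochondrial UMIs (892 at an unadjusted p under 0.05) and 75 with non-dividing cells free of Top2a and Mki67. All 171 genes were also called with the block and with no filter, 97 after thinning and 52 with the stricter non-dividing cells. The count stayed within 1.5 times under DESeq2 (240), its size factors (170), no scaling (225), doublets left out (177), the top 5% of doublet scores left out (194), shared barcodes left out (170) and the other gate limits (139 to 184). The contrast of dividing follicle with dividing basal cells gave 3505 calls and 1945 after thinning, and that with non-dividing follicle cells gave 1957 and 4105 with the block. For dividing follicle against dividing basal cells, the count with the block stayed within 1.5 times. Within lists it moved some counts further, for example from 4 to 9 S phase genes called negative in the interaction.

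The share of dividing follicle cells, on average 8.02%, was 9.93% and 5.72% with 4 and 10 mitotic UMIs, 9.0% and 7.31% with 1 and 3 Lhx2 UMIs, 10.7% with under 5% mitochondrial UMIs, 2.83% after thinning and 7.45% without the top doublet scores. Without 1 mouse it was 7.66% to 8.39%. The ratio of dividing shares, 3.09, was 2.92 with 10 mitotic UMIs, 2.83 and 3.30 with 1 and 3 Lhx2 UMIs, 3.86 with the keratin limit at 3%, 1.27 with under 5% mitochondrial UMIs and 2.62 after thinning. After thinning, the share and the ratio used limits applied to the thinned counts, while the gene comparisons kept the groups set on all UMIs. The causes were not tested. The alternatives on scaling, on top doublet scores, on shared barcodes, on stricter non-dividing cells and for the ratio were chosen after seeing the data. No gene named for the size of its difference changed direction under the alternatives, but sizes moved beyond the spread between the mice. For dividing against non-dividing follicle cells, 13 of 24 moved after thinning, and 5 and 7 without mouse 1 and mouse 2. Against dividing basal cells, 3, 2 and 8 of 24 moved, for example Hoxc13, from 5.85 to 8.51 without mouse 2. In the interaction, all 17 named genes were weaker with under 5% mitochondrial UMIs. There, 9 were weaker with the stricter non-dividing cells and 5 with the keratin limit at 3%. Without mouse 1 and mouse 2, 2 and 3 of the 17 moved. Among the listed genes, interactions near 0 changed sign with the block, as for Mcm2 (-0.02 and 0.01) and Runx1 (0.01 and -0.05), and the values of single mice differed in sign for some, as for Rrm2 (-1.13 and 0.31). Leaving out a mouse leaves 1 sum per gate, so values were computed but no calls. Dividing basal sums were the shallowest (2002375 and 3487358 UMIs).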

Other observations

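Cornified envelope transcripts in the dividing follicle cells were concentrated in few cells in mouse 1 and less so in mouse 2. Summed over the Lce genes and Lor there were 3172 UMIs in mouse 1 and 1198 in mouse 2. In mouse 1, 3 cells with 20 or more such UMIs held 82.9% of them and the highest cell had 2365, and in mouse 2, 9 cells held 22.0%. Without these cells the levels were 45.6 and 52.7 CPM. None of the 3 cells in mouse 1 was called a doublet, where the caller did not work. The level of Lor in mouse 1 (123 CPM, against 51.2 CPM in mouse 2) contains these cells.

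The genes with the most UMIs in dividing follicle cells, leaving out ribosomal protein and mitochondrial genes, were Ptma (11464 and 11481 CPM), Tpt1 (7555 and 6691 CPM), Eef1a1 (7025 and 6819 CPM) and Malat1 (6084 and 6839 CPM), counted per transcript end. Of the chromatin genes, H3f3b, a replication-independent histone, was at 3870 and 3600 CPM and Hmgb1 at 3703 and 3539 CPM. Ccnd2 was at 527 CPM in mouse 1 and 892 CPM in mouse 2 in dividing follicle cells and at 594 and 576 CPM in dividing basal cells.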
